A study of Mus musculus with 4 samples.

Results

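The Tet1 locus was examined as a window of chromosome 10, chr10:62784577-62919118 in the mm10 (GRCm38.p6) build, which holds the annotated Tet1 transcript chr10:62804577-62899118 on the minus strand with 20 kb on each side. Members were the CpGs of this window with 5 or more reads in all 4 whole-genome bisulfite sequencing (WGBS) libraries. Of 1555 window CpGs listed in any library, 1217 passed this minimum, 338 did not, and 776 had 10 or more reads in all 4. Over the autosomes 14907672 CpGs passed.

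The libraries came from single male E11.5 embryonic brains, dissected from mice of the line 129S6.cg Tet1<tm1Koh>, with 1 library in each of 4 groups. The groups were Tet1 knockout (KO) and wild type (WT) from dams on an excess folic acid diet (30 ppm FA), and KO and WT from dams on the control diet (3 ppm FA). All dams were heterozygous for Tet1 and ate custom diets that contained the antibiotic succinyl sulfathiazole for at least 4 weeks. The comparisons ask how loss of TET1 and the maternal folate level shape DNA methylation in the embryonic brain.

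The null allele carries a cassette at the first coding ATG and was made in B6 mice before it was backcrossed to 129S6, so KO embryos may keep B6 sequence next to the gene. By the study's embryo list for another assay, under the same embryo numbers, both KO embryos had a neural tube defect, both WT embryos were scored normal, and the 4 came from different litters. Genotype, defect and litter therefore cannot be told apart. The Fisher and Wald tests below compare the reads of single libraries, not replicated conditions, and only the limma fit sets both KO libraries against both WT libraries, with diet as a term and 1 residual degree of freedom. Bisulfite reads do not separate 5-methylcytosine from 5-hydroxymethylcytosine, and they do not measure transcripts, so Tet1 RNA and brain marker genes were not checked.

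TET1, the protein made from Tet1, is an enzyme that oxidises methylated cytosine, a first step in the removal of DNA methylation. TET1 has a CXXC domain that binds CpG-rich DNA, and its loss is known for higher methylation at the borders of CpG islands. CpG islands at active promoters are normally free of methylation, while gene bodies are mostly methylated. The Tet1 gene is thus both the mutated gene and a possible target of its own enzyme.

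Sequences from the regions described below are shown first, on the minus strand of mm10, which is the sense strand of Tet1, with each CpG in capitals. That of the first-intron stretch was picked by its number of CpGs, not by the size of its difference. The most CpG-rich 300 bases of the first-intron stretch, chr10:62885331-62885630, hold 12 CpGs, all of them measured. The 300 bases upstream of the outermost start site at the Tet1 promoter island, chr10:62887513-62887812, hold 8 CpGs on the upstream border of the island. The 270 bases chr10:62863978-62864247 in intron 3, a region the authors deposited as lower in KO on 30 ppm FA, carried less methylation in KO, and the 194 bases chr10:62866807-62867000 in intron 2 carried more. The first 100 coding bases, chr10:62879915-62880014, hold the CpGs used to check the null allele.
First-intron stretch: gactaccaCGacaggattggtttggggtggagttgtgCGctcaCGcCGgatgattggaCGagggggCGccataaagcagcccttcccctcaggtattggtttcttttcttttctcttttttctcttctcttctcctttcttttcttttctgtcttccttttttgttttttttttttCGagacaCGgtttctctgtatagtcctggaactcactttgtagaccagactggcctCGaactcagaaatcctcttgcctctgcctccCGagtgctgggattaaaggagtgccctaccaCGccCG
Upstream border of the promoter island: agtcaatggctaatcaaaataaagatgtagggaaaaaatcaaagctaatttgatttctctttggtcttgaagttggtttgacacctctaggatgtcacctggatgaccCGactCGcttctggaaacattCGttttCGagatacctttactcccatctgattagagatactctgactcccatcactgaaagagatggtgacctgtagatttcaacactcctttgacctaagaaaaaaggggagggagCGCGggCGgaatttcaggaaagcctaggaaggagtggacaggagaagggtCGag
Intron 3, lower in KO: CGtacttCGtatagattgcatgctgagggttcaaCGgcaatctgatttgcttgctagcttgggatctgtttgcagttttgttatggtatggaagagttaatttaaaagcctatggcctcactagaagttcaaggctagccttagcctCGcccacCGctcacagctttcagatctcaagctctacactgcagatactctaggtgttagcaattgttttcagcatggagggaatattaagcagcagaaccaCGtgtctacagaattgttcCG
Intron 2, higher in KO: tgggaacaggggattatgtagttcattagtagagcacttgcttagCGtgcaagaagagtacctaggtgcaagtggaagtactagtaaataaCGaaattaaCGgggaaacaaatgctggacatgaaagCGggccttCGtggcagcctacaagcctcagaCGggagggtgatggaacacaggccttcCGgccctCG
Coding sequence from the start codon: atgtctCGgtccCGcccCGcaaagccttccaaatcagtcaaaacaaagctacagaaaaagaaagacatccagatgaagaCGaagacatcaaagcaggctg

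The site of the null allele was checked first, by its reads. The CpGs at bases 7, 13 and 18 of the coding sequence (chr10 positions 62880007, 62880001 and 62879996) were not listed in either KO library, which means fewer than 2 reads since the tables start at 2. The WT library on 30 ppm FA had 12, 11 and 11 reads there, and the WT library on 3 ppm FA had 11, 12 and 10. The neighbouring CpG before the start codon, 62880045, had 5 and 7 reads in the KO libraries and 10 and 11 in the WT libraries, all in the order 30 ppm, then 3 ppm. The next CpG into the coding sequence, 62879934, had 7 and 10 reads in KO and 11 and 10 in WT. The gap in the KO libraries thus stood at the site where the allele is described to carry its cassette. The window held 3 CpGs without listed reads in both KO libraries among 1294 with 5 or more reads in both WT libraries, and these were the 3. Over the autosomes the same pattern was seen at 0.129% of such CpGs, and in 1021 runs of 3 or more.

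**Figure D1:**
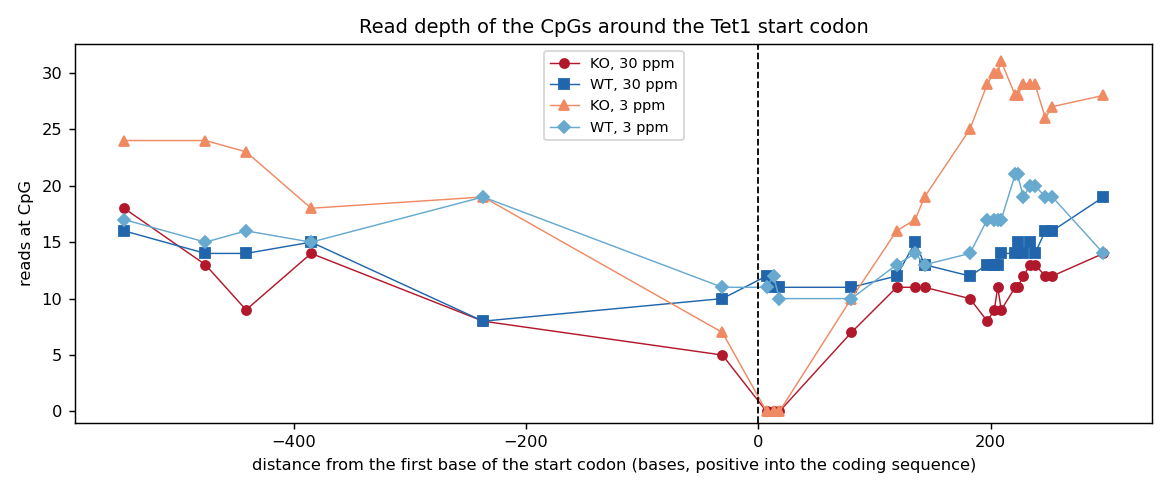
Reads at each CpG (vertical axis) against distance from the first base of the Tet1 start codon in bases (horizontal axis, positive into the coding sequence), with 1 line for each library and the dashed line at the start codon. Both KO lines reach 0, drawn where a CpG was not listed, at the CpGs of bases 7 to 18, where both WT lines lie between 10 and 12 reads.

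Across the locus, methylation was high outside a few short regions. The level pooled over the 1217 CpGs was 87.4% in the KO library on 30 ppm FA, 85.1% in WT on 30 ppm FA, 86.6% in KO on 3 ppm FA and 85.1% in WT on 3 ppm FA. Mean depth over these CpGs was 13.1, 14.6, 22.4 and 16.5 reads in the same order. The 140 CpGs in the coding exons lay between 94.4% and 95.7% in the 4 libraries. Exon 2, which holds the start codon, was at 95.7% in KO and 96.5% in WT on 30 ppm FA, and at 96.3% in KO and 94.0% in WT on 3 ppm FA. The part of the last exon after the coding sequence was between 90.8% and 93.4%. Coding exons and the end of the gene were thus near full methylation in either genotype, as far as these depths resolve.

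Intron 1 stood apart from the rest of the gene. Its 157 CpGs were at 79.4% (95% Wilson interval 77.6 to 81.2, from 1897 reads) in the KO library and 59.2% (57.1 to 61.3, from 2172 reads) in the WT library on 30 ppm FA. With the control diet they were at 75.6% (74.1 to 77.0, from 3359 reads) in the KO library and 57.4% (55.5 to 59.3, from 2475 reads) in the WT library. These intervals cover counting error only. A read that spans several CpGs enters the sums several times, so reads of neighbouring CpGs are not independent, and intervals can be too narrow and p-values too small. Without the first-intron stretch, intron 1 was at 73.5% in KO and 66.7% in WT on 30 ppm FA, and at 69.1% in KO and 64.2% in WT on 3 ppm FA. Most of the difference thus lay in the stretch, whose measured CpGs run from 62886058 to 62881369, 1411 to 6100 bases into the gene from the RefSeq start. The stretch was named with its KO and WT levels already known, so its own levels are a description, and the calls made in it below come from fits over all CpGs or tiles rather than independent support.

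In the stretch, 50 CpGs passed the minimum. Their pooled level was 90.1% (87.6 to 92.1, from 678 reads) in the KO library and 44.7% (41.1 to 48.3, from 739 reads) in the WT library on 30 ppm FA, a difference of 45.5 points. On 3 ppm FA it was 87.9% (85.9 to 89.6, from 1163 reads) in the KO library and 42.0% (38.5 to 45.5, from 755 reads) in the WT library, a difference of 45.9 points. Both KO levels were thus above both WT levels, by a similar amount in each diet. From these same libraries the authors listed chr10:62883850-62886058 and chr10:62881227-62881965, both in the stretch, as higher in KO on 30 ppm FA. Their list for 3 ppm FA held chr10:62885206-62886058, chr10:62883850-62884972 and chr10:62881227-62881965. As these lists came from the same reads, they add no independent support. Between diets the level differed by 2.24 points in KO, with an interval of -0.79 to 5.09, and by 2.67 points in WT, with an interval of -2.35 to 7.67. With a minimum of 10 reads these differences were 0.96 points in KO and 1.18 in WT. With the mean over CpGs the WT difference was -0.27 points and so changed sign.

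The CpGs of the stretch were more uneven in WT than in KO. In WT on 30 ppm FA they ranged from 0 to 95% with a median of 30.0% and an SD over CpGs of 30.2 points, and in WT on 3 ppm FA from 0 to 92.9% with a median of 35.1% and an SD of 28.4. In KO on 30 ppm FA they ranged from 0 to 100%, with a median of 97.6% and an SD of 20.3. In KO on 3 ppm FA they ranged from 30 to 100%, with a median of 91.5% and an SD of 16.1. Levels of 80% or more were found at 44 and 42 CpGs in the KO libraries and at 9 and 5 in the WT libraries. At 47 of the 50 CpGs both KO libraries were above both WT libraries. Over the autosomes 16.9% of CpGs had that order, and over the whole window, with the stretch included, 229 of 1217 CpGs, or 18.8%. The reverse order was found at 167 window CpGs, or 13.7%, and at 12.8% of autosomal CpGs. As the stretch was named with its levels known, its count is a description. The printed 300 bases, with 12 measured CpGs, were at 97.1% in KO and 49.3% in WT on 30 ppm FA, and at 92.4% in KO and 49.7% in WT on 3 ppm FA.

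**Figure D2:**
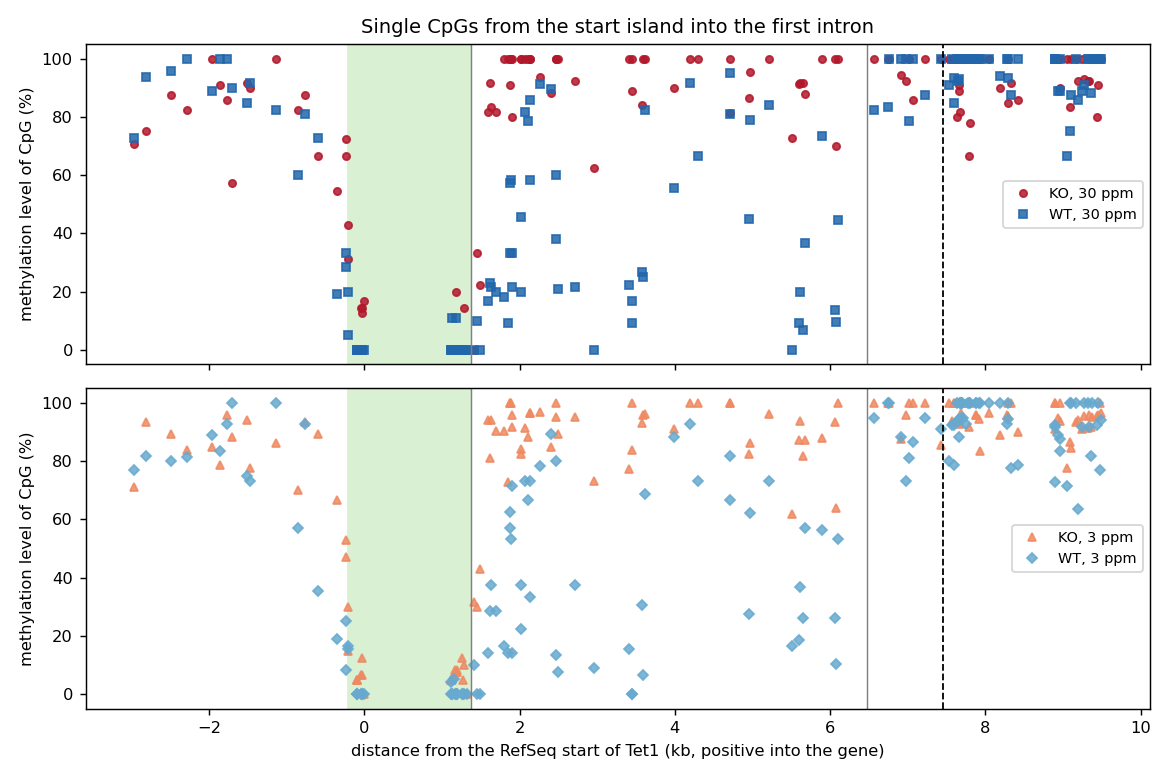
Methylation level of each CpG in percent (vertical axis) against distance from the RefSeq start of Tet1 in kb (horizontal axis, positive into the gene), with the 30 ppm libraries above and the 3 ppm libraries below. The shaded block is the promoter CpG island, the grey lines bound the first-intron stretch and the dashed line is the start codon. Between the grey lines most KO points lie at 80% or more while WT points spread from 0 to 95%.

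Single CpGs showed the same. Fisher's exact test of each CpG, two-sided and adjusted by Benjamini-Hochberg over all 14907672 CpGs, called 3 window CpGs higher in KO on 30 ppm FA and 7 on 3 ppm FA. The background was 0.00315% and 0.0103% of CpGs called higher in KO, against 7.38e-05% and 0.000577% called lower, and no window CpG was called lower in either diet. All the called CpGs lay in the stretch, and 62881406 and 62883877 were called in both diets. After thinning to the depth of the shallowest library 1 and 2 window CpGs were called on 30 and 3 ppm FA, and with a minimum of 10 reads 3 and 4. At 62883877, KO was at 100% of 22 reads and WT at 25.0% of 16 reads on 30 ppm FA, and KO was at 95.8% of 24 reads and WT at 6.67% of 15 reads on 3 ppm FA. At 62881406, KO was at 100% of 20 reads and WT at 13.6% of 22 on 30 ppm FA, and KO was at 93.3% of 30 reads and WT at 26.3% of 19 on 3 ppm FA. These were the CpGs with the greatest mean KO minus WT difference among those with 10 reads in all 4 libraries, 82.1 and 76.7 points. The next 8 by that measure, from 62881869 at 75.3 points to 62885852 at 60.6 points, were also in the stretch.

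The window was then cut into 1 kb tiles with 3 or more such CpGs, which gave 126 tiles of 1863069 over the autosomes. Reads of each tile were compared by two-sided Fisher's exact test, and a tile was called at an adjusted p under 0.05 with a difference of at least 10 points. Between KO and WT on 30 ppm FA, 5 tiles were called higher in KO and 2 lower, against a background of 1.13% and 0.0487% of all tiles. At 3 ppm, 6 were called higher and 3 lower, against a background of 1.1% and 0.114%. In both diets 6 tiles were called, 4 higher in KO and 2 lower, against a background of 0.367% of all tiles called higher in both and 0.000537% called lower in both. The 4 lay in the stretch, as did 62882001, called higher on 3 ppm FA. Outside the stretch the only tiles called higher were 62887001 on 30 ppm FA and 62866001 on 3 ppm FA. Because the stretch was named with its levels known, the counts of tiles called higher are a description beside these backgrounds. A further 4 tiles were called in 1 diet only, those at 62887001 on 30 ppm FA and at 62803001, 62866001 and 62882001 on 3 ppm FA. The remaining 116 tiles were called in neither diet, and their differences ran from -9.17 to 16.2 points on 30 ppm FA and from -9.67 to 11.03 points on 3 ppm FA.

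Within the stretch, the tile starting at 62884001 had the largest rise. It stood at 93.4% (85.5 to 97.2) in KO and 28.8% (21.2 to 37.9) in WT on 30 ppm FA, with an adjusted p of 3.52e-16 by Fisher's exact test. With the control diet it stood at 89.9% (84.4 to 93.6) in KO and 20% (13.5 to 28.6) in WT, with an adjusted p of 1.64e-28. By the mean KO minus WT difference of both diets it ranked number 4 of all 1863069 tiles. Fewer than 3 of its CpGs had 10 or more reads in all libraries, so it could not be tested with a minimum of 10 reads. The tile at 62881001, farthest from the promoter, rose from 29.5% in WT to 91.2% in KO on 30 ppm FA and from 34.0% to 85.1% on 3 ppm FA, and ranked number 28. The tile at 62885001, next to the island, rose from 47.3% to 90.1% and from 46.8% to 90.4%. The tile at 62883001 rose from 56.7% to 95.5% and from 61.1% to 95.4%. The tile at 62882001 stood at 76.8% in WT and 92.3% in KO on 30 ppm FA, which was not called (adjusted p = 0.172, Fisher's exact test), and at 56.2% in WT and 92.7% in KO on 3 ppm FA, which was. In WT the stretch was thus lowest in the tiles at 62881001 and 62884001, and higher in both tiles between them, with 62882001 the highest on 30 ppm FA and 62883001 on 3 ppm FA.

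**Figure D3:**
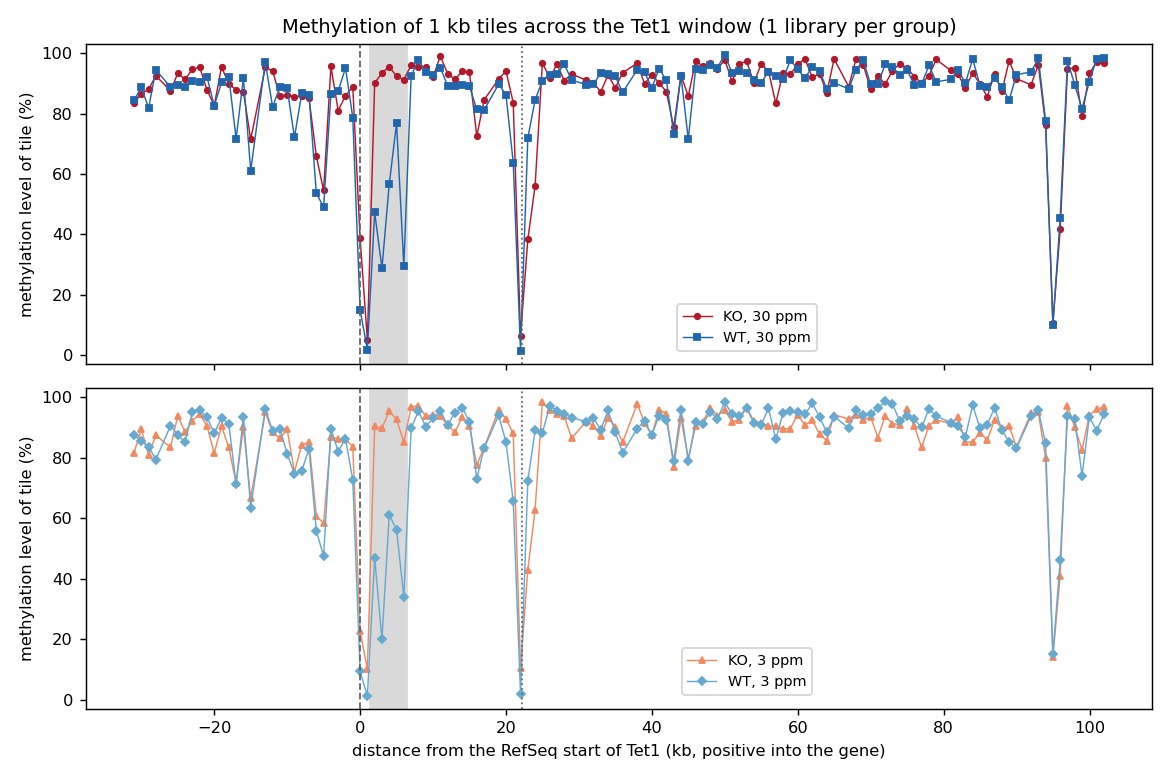
Methylation level of each 1 kb tile in percent (vertical axis) against distance from the RefSeq start of Tet1 in kb (horizontal axis, positive into the gene), with the 30 ppm libraries above and the 3 ppm libraries below. The grey block is the first-intron stretch, the dashed line the RefSeq start and the dotted line the start annotated in intron 2. KO and WT lines part in the grey block and beside the dotted line, and both stay near 90% over most of the gene.

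The limma fit of genotype with diet in the model, the test in which differences between embryos enter, made no call. It called 0 of 126 window tiles and 0 of 1863069 tiles over the autosomes (0% called) at an adjusted p under 0.05, with a lowest adjusted p in the window of 0.136. At an unadjusted p under 0.05 it held 24 window tiles, 15 of them higher in KO, against a background of 7.75% of all tiles. These include the tiles of the stretch, which was named with its levels known, so this count is a description beside the background. The tile at 62884001 had a limma log2 odds difference of 4.95 (unadjusted p = 2.19e-07), and that at 62881001 one of 3.99 (unadjusted p = 3.56e-06). None of the window tiles called by Fisher's exact test passed the adjusted threshold in this fit.

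The promoter CpG island, chr10:62886091-62887677, contains the RefSeq start of Tet1 at 62887469 and borders the stretch. It was computed from the sequence as a run with at least 50% G and C and an observed over expected CpG ratio above 0.6, and holds 92 CpGs in 1587 bases. Over its 21 CpGs that passed, the level was 8.33% (4.83 to 14.0, from 144 reads) in the KO library and 2.97% (1.37 to 6.33, from 202 reads) in the WT library on 30 ppm FA. On 3 ppm FA it was 7.46% (5.18 to 10.6, from 362 reads) in the KO library and 1.41% (0.55 to 3.56, from 284 reads) in the WT library. With every CpG that each library listed, the levels were 3.95% and 1.34% on 30 ppm FA and 3.44% and 1.01% on 3 ppm FA. The island was thus low in methylation in all libraries, and its level was higher in KO than in WT in both diets and with either set of CpGs.

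The border toward the gene was sharp in KO. At 62885869 KO stood at 81.8% and 94.1% (30 and 3 ppm) and WT at 16.7% and 14.3%. At 62886018, nearer the start, KO stood at 33.3% and 30.0% and WT at 10% and 0%. At 62886150 all 4 libraries were at 0%. By a running level of 5 CpGs below 50%, the low region around the start was 1658 bases long in KO and 2608 in WT on 30 ppm FA, and 1680 bases in KO and 2475 in WT on 3 ppm FA. The KO libraries thus kept a low region about as long as the island, and it was longer in the WT libraries on both sides.

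On the upstream border, the tile at 62887001 rose from 15.1% (10.3 to 21.7) in WT to 38.8% (31.0 to 47.3) in KO on 30 ppm FA (adjusted p = 0.00182, Fisher's exact test). With the control diet it stood at 9.38% (5.44 to 15.7) in WT and 22.7% (17.7 to 28.6) in KO, which was not called (adjusted p = 0.0834, Fisher's exact test). The 8 CpGs of the printed upstream 300 bases were at 40.7% in KO and 16.8% in WT on 30 ppm FA, and at 20% in KO and 9.88% in WT on 3 ppm FA. The promoter, 1 kb on each side of the RefSeq start, held 15 CpGs that passed. It was at 48.6% in KO and 28.6% in WT on 30 ppm FA and was called (adjusted p = 0.00138, Fisher's exact test over 19726 promoters). On 3 ppm FA it was at 39.7% in KO and 28.9% in WT (adjusted p = 0.0517, Fisher's exact test). With a minimum of 10 reads or with 2.5 kb on each side the 3 ppm difference was called as well, at 16.7 and 24.6 points. The 2.5 kb window reaches into the stretch. The 1 kb promoter takes in CpGs upstream of the island. The 5 CpGs within 500 bases of the island there were at 57.5% in KO and 27.3% in WT on 30 ppm FA. Only 21 of the island's 92 CpGs passed, so the promoter levels do not stand for the island.

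A second low region lay in intron 2, around the start of a short Tet1 transcript at 62865304, which is 22165 bases from the RefSeq start. The annotation types this transcript as processed, not as protein coding. The paper reports low expression of a shorter Tet1 isoform from a downstream start in KO brains, and whether that isoform starts here was not tested. The long noncoding RNA Gm51805, annotated on the plus strand at chr10:62865670-62910643, starts 366 bases from 62865304 and runs antisense through intron 2, exon 2, the stretch and the promoter island. The tile at 62865001, at the start itself, was at 6.45% (3.73 to 10.9) in KO and 1.52% (0.42 to 5.36) in WT on 30 ppm FA, and at 10.5% (6.54 to 16.3) in KO and 1.98% (0.77 to 4.98) in WT on 3 ppm FA. It was called in neither diet. Of its neighbours, the tile on the side into Tet1 fell in KO in both diets, and the tile on the other side rose in KO on 3 ppm FA.

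On the side into Tet1, methylation fell in KO. The tile at 62864001 stood at 38.3% (30.1 to 47.3) in KO and 72.0% (64.6 to 78.3) in WT on 30 ppm FA, with an adjusted p of 1.28e-05 by Fisher's exact test. With the control diet it stood at 43.0% (36.1 to 50.2) in KO and 72.4% (65.3 to 78.5) in WT, with an adjusted p of 1.2e-05. By the mean of both diets this was the lowest KO minus WT difference of all 1863069 tiles. The tile at 62863001 stood at 56.2% in KO and 84.5% in WT on 30 ppm FA and at 62.9% in KO and 89.1% in WT on 3 ppm FA (adjusted p = 0.0095 and 1.97e-05, Fisher's exact test), and ranked number 5 from the lowest. It too could not be tested with a minimum of 10 reads. The 7 measured CpGs of the printed intron 3 sequence, 1058 bases from the start, were at 48.7% in KO and 86.9% in WT on 30 ppm FA, and at 49.2% in KO and 81.5% in WT on 3 ppm FA. That sequence overlaps both tiles. It is the region the authors listed as lower in KO on 30 ppm FA from these same libraries, so its levels are a description. It was not on their list for 3 ppm FA. Both KO levels were below both WT levels in both tiles.

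On the other side, the tile at 62866001 rose from 65.7% (57.3 to 73.2) in WT to 88.1% (82.9 to 91.9) in KO on 3 ppm FA (adjusted p = 0.000328, Fisher's exact test). After thinning to the shallowest library the difference was 20.3 points and was not called (adjusted p = 0.0513, Fisher's exact test). On 30 ppm FA it stood at 63.8% (54.7 to 72.0) in WT and 83.6% (75.6 to 89.4) in KO (adjusted p = 0.0622, Fisher's exact test). The 8 measured CpGs of the printed intron 2 sequence were at 89.0% in KO and 67.6% in WT on 30 ppm FA, and at 90.9% in KO and 68.5% in WT on 3 ppm FA. That sequence was cut from this tile because the tile was called on 3 ppm FA, so its levels are a description. The low region was about as long in KO, 1805 and 1694 bases on 30 and 3 ppm FA, as in WT, 1813 bases in both. It ran from 62864246 and 62864255 to 62866051 and 62865949 in KO, and from 62864994 to 62866807 in WT. In KO the low region thus reached farther toward the 3′ end of Tet1 by this measure. On its other side no CpG from 62866304 to 62866803 passed, and the WT edge lay just past this gap. That edge in WT, and so the lengths compared, were not resolved.

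**Figure D4:**
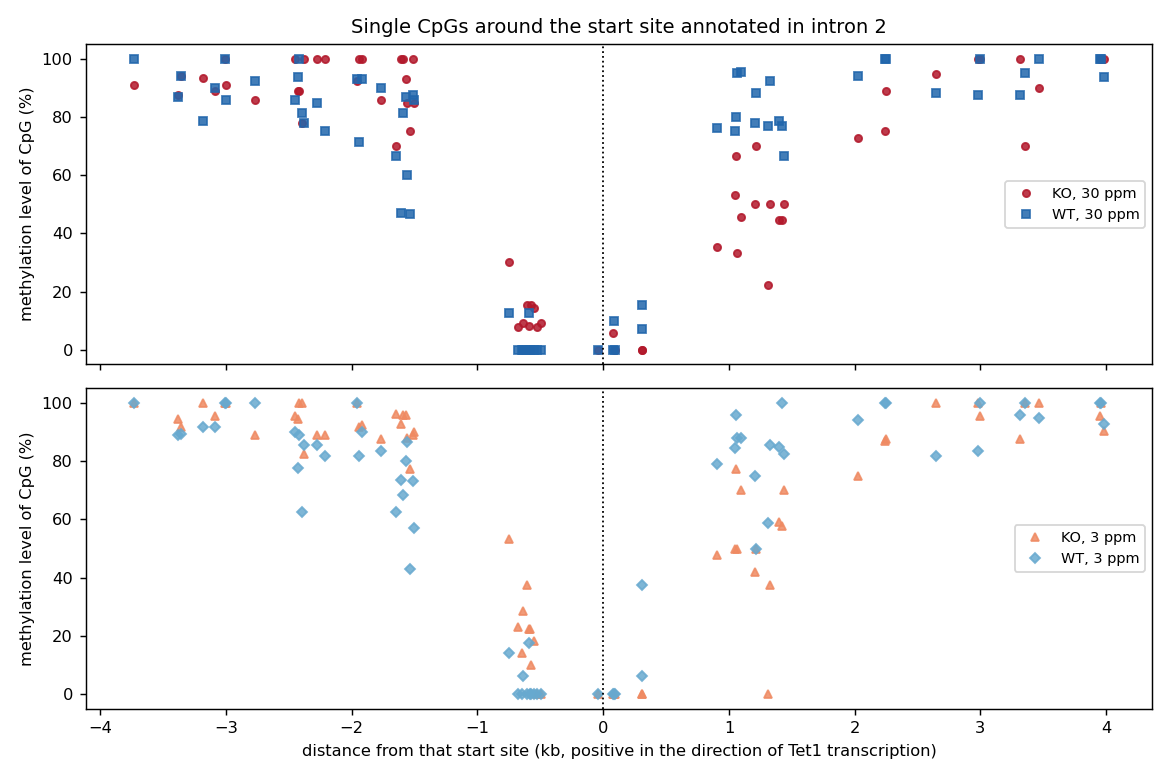
Methylation level of each CpG in percent (vertical axis) against distance in kb from the start annotated in intron 2 (horizontal axis, positive in the direction of Tet1 transcription), with the 30 ppm libraries above and the 3 ppm libraries below. To the right of the dotted start, near 1 kb, KO points lie mostly below WT points, and to the left, near -1.5 kb, KO points lie mostly above.

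At the other annotated starts levels were taken 1 kb to each side. Around 62908996 the levels were 91.5% and 92.6% in KO and 91.2% and 94.7% in WT, on 30 and 3 ppm FA. Around 62899118, where the transcript used for the window starts, they were 91.3% and 89.1% in KO and 86.2% and 90.6% in WT. Around 62892986 CpGs were at intermediate levels, 61.3% and 59.8% in KO and 52.0% and 51.8% in WT. The annotated start at 62880014, inside exon 2, and those at 62868954 and near 62814540 were at 90.2% or more in every library. Pooled in this way, a level below 50% in all libraries was found only at the promoter island and in intron 2. Nearer to 62892986 a low level was also found. The 4 CpGs of chr10:62892678-62893177 were at 30.8% and 27.7% in KO and 25.0% and 30.9% in WT, on 30 and 3 ppm FA.

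The remaining called tile, 62803001 in the 3′ flank, stood at 85.2% in KO and 97.5% in WT on 3 ppm FA (adjusted p = 0.0423, Fisher's exact test) and at 93.5% and 98.1% on 30 ppm FA. Its call on 3 ppm FA, at a difference of -12.2 points, was lost with a minimum of 10 reads (-12.7 points), with no minimum (-10.2 points), after thinning (-13.2 points) and at a threshold of 20 points. Ccar1, a transcriptional coactivator gene that overlaps the 3′ flank, has its own promoter island at chr10:62791323-62792757. That island stood at 11.9% in KO and 11.4% in WT on 30 ppm FA and at 11.2% in KO and 12.97% in WT on 3 ppm FA, and the Ccar1 promoter was called in neither diet. Slc25a16, which encodes a mitochondrial carrier and is the nearest gene on the other side, rose at its promoter from 20.3% to 37.3% on 30 ppm FA and from 20.8% to 30.9% on 3 ppm FA (adjusted p = 0.000562 and 0.0192, Fisher's exact test). The Slc25a16 call was lost on 30 ppm FA with a minimum of 10 reads, where the difference was 20.1 points (adjusted p = 0.199), and on 3 ppm FA with 2.5 kb on each side, where it was 4.49 points (adjusted p = 0.148). With a minimum of 10 reads the 3 ppm difference was 28.3 points and stayed called (adjusted p = 0.0455, Fisher's exact test). Among all promoters 15.3% were called higher in KO on 30 ppm FA and 16.3% on 3 ppm FA, and 0.345% and 0.375% lower.

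**Figure D5:**
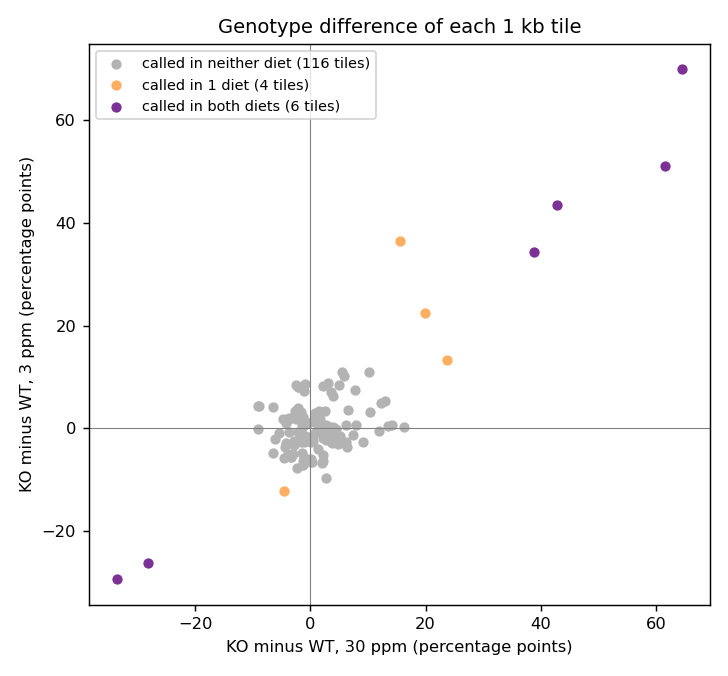
KO minus WT difference of each 1 kb tile of the window in percentage points on 30 ppm FA (horizontal axis) and 3 ppm (vertical axis), coloured by whether the tile was called in neither diet, in 1 or in both. The 6 tiles called in both diets lie on the same side of 0 in each, 4 above and 2 below.

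Pooled over the whole gene, these local changes were small. The 935 CpGs of Tet1 were at 88.6% (88.0 to 89.1) in KO and 85.5% (84.9 to 86.1) in WT on 30 ppm FA, a difference of 3.06 points. On 3 ppm FA they were at 87.9% (87.5 to 88.3) in KO and 85.3% (84.8 to 85.9) in WT, a difference of 2.57 points, which was 1.36 points with a minimum of 10 reads. The differences at the minimum of 5 reads were higher than those of 69.4% and 74.5% of the 15381 other genes, whose medians were 2.03 and 1.01 points. Without the stretch the difference of Tet1 was 0.68 and 0.36 points.

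Between diets, no tile of the window was called in either genotype. In KO the differences of 30 minus 3 ppm ran from -7.37 to 16.3 points with a lowest adjusted p of 0.278, against a background of 0.043% of tiles called higher and 0.0253% lower. In WT they ran from -7.58 to 20.5 points with a lowest adjusted p of 0.330, against a background of 0.00886% and 0.0381% (Fisher's exact test). A Wald test of whether KO minus WT differed between diets called 0 of 126 tiles, with 10 at an unadjusted p under 0.05 and a lowest adjusted p of 0.510, against a background of 0.0692%. Differences between diets of the size of these ranges were not resolved at this depth. The 30 ppm and 3 ppm comparisons of genotype use separate embryos.

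Other genes of the demethylation and methylation pathway were taken from a fixed list of 18, of which 17 could be tested at their promoters (Ogt is on the X chromosome). On 30 ppm FA 3 of 17 were called higher in KO, close to the 15.3% of all promoters, and none lower. These were Tet2, which encodes a sister enzyme of TET1 (18.5% in KO, 5.37% in WT), Xrcc1, a scaffold of base excision repair (34.3% and 20.9%), and Smug1, a uracil DNA glycosylase (38.0% and 16.1%). With a minimum of 10 reads 14 of the listed promoters could be tested, and Xrcc1 and Smug1 were not among them. With the control diet 2 of 17 were called higher, against 16.3% of all promoters, and none lower. These were Idh1, which makes the 2-oxoglutarate that TET enzymes use (29.5% in KO, 12.3% in WT), and the de novo methyltransferase gene Dnmt3b (79.6% and 57.9%). With 2.5 kb on each side the Dnmt3b difference was 5.33 points and was not called (adjusted p = 0.112, Fisher's exact test). No promoter of the list was called in both diets, beside 7.82% of all promoters called higher in KO in both and 0.00507% called lower in both. The median difference of the list was 4.09 points on 30 ppm FA, beside 3.82 over all promoters, and 4.10 points on 3 ppm FA, beside 3.22. Tet3, the third TET enzyme, was at 62.8% in KO and 58.7% in WT on 30 ppm FA and at 67.4% and 57.4% on 3 ppm FA.

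Among 346547 windows of 5 kb, those that overlap a gene and have levels most like the stretch were found by Euclidean distance over the 4 library levels. The nearest overlapped Tnfrsf1a and Plekhg6, at 81.6% in KO and 46.2% in WT on 30 ppm FA and at 80.2% and 48.1% on 3 ppm FA, a distance of 13.1 points. The next overlapped Zfp467, at 85.5% and 57.7% and at 85.0% and 45.8%, a distance of 14.7 points. The others overlapped Myo1a and Tac2, Alox5ap, and Pcdh7, at distances of 18.3, 19.96 and 20.9 points. These windows were picked by their levels, which are therefore a description.

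KO and WT libraries could differ near Tet1 by strain sequence as well as by the null allele. A CpG that is 80% or more methylated in both libraries of 1 genotype and 5% or less in both of the other can mark a base difference. The window held 0 such CpGs. Over the autosomes they were 545, or 0.00366% of the CpGs, a share at which fewer than 1 would fall among 1217 CpGs. They were unevenly placed, with 525 of them on chromosome 10. There the share was 1.15% at 40 to 45 Mb, a block picked after the positions were seen. At 60 to 65 Mb, which holds the window, it was 0.00724%. In both WT libraries 4 of 1323 window CpGs with 5 reads in both KO libraries had no listed reads, beside 0.425% of such CpGs over the autosomes. The part of B6 sequence linked to the null allele in the differences above was not tested.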

How the data were processed

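WGBS was read from 4 libraries of single embryonic brains, 1 per group, grouped by the labels. Per the labels, the authors sonicated DNA, bisulfite converted it and sequenced paired ends. The submitters' processing notes name Trim Galore 0.6.10 and Bismark 0.23.1 and the builds mm10 and GRCm38.p6. The deposited tables give, per CpG with 2 or more reads, a fraction methylated and a read count. The authors' lists of differentially methylated regions were used for positions only, and their scores and merged lists were not used. All 1054999 CpGs listed on chromosome 10 lay on a CG of the reference. Cytosines of mitochondrial CpGs read as methylated were 0.914% to 0.938% of reads, a measure of incomplete conversion. The authors removed duplicate reads before deposit.

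Methylated reads were the fraction times the count. Levels pool reads over CpGs with 5 or more reads in all 4 libraries, with 95% Wilson intervals that cover counting error only. Mean depth over these CpGs was 14.3 to 23.3 reads. Tiles of 1 kb with 3 CpGs, promoters (1 kb on each side of RefSeq starts) and CpGs were tested on autosomes by Fisher's exact test with Benjamini-Hochberg adjustment over all of each kind, called at an adjusted p under 0.05 and 10 points, in Python 3 with NumPy and SciPy. A Wald test compared genotype differences between diets with 0.5 added to each count, and limma 3.58.1 fitted log2 odds with 1 added. The study's own pairwise test was not installed here, and Fisher's test took its place. Tests were checked on simulated data. Named tiles, starts, CpGs, genes and most-like windows followed a written rule. The members, gene list and stretch were chosen with earlier results of these data known. Alternatives changed the read minimum, tile size and offset, depth by thinning, threshold, CpG sets, scale and promoter size.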

Additional observations from a re-analysis of the deposited data

How the results depend on the processing

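KO and WT could not be paired by litter, because by their numbers the embryos all came from different litters. The limma fit with diet as a term already set KO against WT within each diet. With 1 library in each group, no replicate could be left out. No called tile that could be tested again changed direction when the read minimum, depth, threshold or CpG set was changed. Tiles of 500 bp and shifted tiles were compared by their counts only. With tiles of 500 bp, 11 window tiles were called between KO and WT at 30 ppm in place of 7, and with the other 6 alternatives the counts stayed within 1.5 times, between 5 and 8 at 30 ppm and, with 500 bp tiles included, between 7 and 13 at 3 ppm. At a minimum of 10 reads 109 of the window's tiles could be tested, and those at 62884001 and 62863001 were not among them. The diet comparisons, the Wald test and limma made 0 calls under every alternative run. The lowest adjusted p of limma in the window, 0.136 as reported, was 0.0519 when methylated fractions took the place of log2 odds. It was 0.431 with 0.5 in place of 1 added to each count, and 0.359 with a minimum of 10 reads. The gene difference fell to 0.676 points at 30 ppm and 0.362 points at 3 ppm without the stretch. With a minimum of 10 reads it was 1.36 points at 3 ppm, and the difference between diets in WT, 0.185 points at the minimum of 5 reads, was -1.15 points and so changed sign, as it did with the mean over CpGs (-0.10). Calls of single CpGs depended on depth: with a minimum of 10 reads 4 were called at 3 ppm, and after thinning 1 at 30 ppm and 2 at 3 ppm, where fewer reads or CpGs were tested. With promoters of 2.5 kb on each side 1 listed gene, Idh1, was called at 3 ppm, and Dnmt3b was not. With a minimum of 10 reads Xrcc1 and Smug1 could not be tested and Apex1 was called at 30 ppm (11.01 points, adjusted p = 0.0453, Fisher's exact test). The tile at 62803001, at an adjusted p of 0.0423 by Fisher's exact test as reported, lost its call in 4 alternatives, at differences of -10.2 to -13.2 points. A threshold of 20 points is larger than its difference. By the same test its adjusted p was 0.0559 with a minimum of 10 reads, 0.0632 with no minimum and 0.159 after thinning. Why these rose was not tested. The tile at 62866001 lost its 3 ppm call after thinning, which leaves fewer reads (20.3 points in place of 22.4, adjusted p = 0.0513, Fisher's exact test). The levels of the promoter island from all listed CpGs, and the alternatives for the stretch, were added after seeing the data. The stretch difference between KO and WT stayed between 44.07 and 48.5 points in all of these.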

Other observations

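A segment of chromosome 10 set the KO libraries apart from the WT libraries at single CpGs. Of 545 autosomal CpGs that were 80% or more methylated in both KO libraries and 5% or less in both WT libraries, 525 were on chromosome 10. Of these, 517 lay between 40 and 50 Mb, from 40.3 to 48.7 Mb, a range chosen after their positions were seen. The reverse pattern, high in both WT and low in both KO libraries, was found at 0 CpGs. The last of them lay 14.1 Mb from the Tet1 window, and the nearest such CpG to the window, at 60.8 Mb, was 1.98 Mb away. No other autosome held more than 6. A base difference, such as a C in the KO libraries that is a T in the WT libraries, would read in this way, but the files give no genotype calls and this was not tested.

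Reads were not listed in either WT library at 4 window CpGs where both KO libraries had 5 or more. These were 62791671 and 62791680 in the Ccar1 promoter island, 62850935 in intron 3 and 62892173 in intron 1 of Tet1.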
